A study of Macaca mulatta with 24 samples.

Results

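BAFF and APRIL, the ligands encoded by TNFSF13B and TNFSF13, and their receptors TACI, BAFF-R and BCMA, encoded by TNFRSF13B, TNFRSF13C and TNFRSF17, were measured in whole blood of irradiated rhesus macaques. All non-control array probes whose gene name was one of these 5 symbols were taken, which gave 7 probes for 5 genes among 43603 probes and 16111 gene symbols on the array. Of these, 6 probes of 4 genes passed the filter on dim probes, and the only TNFRSF13C probe did not.

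The animals were adult macaques of Chinese origin, males and females, and each received a single 4 Gy total body dose, named as X-rays in the sample labels and as cobalt gamma rays in the study's methods. The 24 arrays comprised 7 pre-irradiation samples, 4 samples from day 3, 6 from day 5 and 7 from day 7 after exposure, and the unirradiated samples came from the same cohort. Replicates 1 to 4 were male and replicates 5 to 7 female. RNA was taken from unsorted blood and depleted of globin transcripts, so a lower signal of a gene in fewer cells of a type and less RNA per cell cannot be told apart in these bulk samples.

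BAFF is made mainly by myeloid cells and stromal cells, and sustains the survival of mature B cells by binding BAFF-R. APRIL, made by myeloid and other cells, binds TACI and BCMA and is known for the maintenance of plasma cells, where BCMA is the main receptor. TACI binds both ligands and is found on activated and memory B cells, and all 3 receptors signal through TRAF adaptors to NF-kB.

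The probe sequences show what was measured for each gene. Positions are those of the array files on the rhesus build rheMac2, and the exon or untranslated position of the probes was not determined here. Each probe was 60 bases long. The brighter BAFF probe, A_01_P1715246, lay at chr17:88484054-88484113 on the plus strand, and the BAFF-R probe, A_01_P1718826, at chr10:85883616-85883675 on the minus strand. They are shown whole as the probe that represents BAFF and the probe that stayed dim, and each had 2 reading frames with no stop codon, as did the TACI probe.
TNFSF13B, A_01_P1715246: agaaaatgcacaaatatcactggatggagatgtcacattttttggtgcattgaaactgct
TNFRSF13C, A_01_P1718826: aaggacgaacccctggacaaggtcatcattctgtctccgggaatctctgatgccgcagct

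The second BAFF probe, A_01_P1824331, lay downstream at chr17:88485581-88485640 on the plus strand and had no open frame. Its last 30 bases are shown with the AATAAA motif, the common polyadenylation signal, in capitals. That motif, searched on the probe's own strand, occurred in 3539 of 43603 probes (8.12%).
TNFSF13B, A_01_P1824331: gctaatatggattaacaAATAAAaaccttc

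The APRIL probes overlapped each other at chr16:7287434-7287496 (A_01_P004713) and chr16:7287441-7287500 (A_01_P1698026) on the plus strand, and are therefore not independent measurements of the gene. In the stretch both share, 3 single bases were present in 1 probe only, and capitals mark them. A_01_P004713 lacked these bases, and its coordinates span 63 bases for a probe of 60. Both probes held AATAAA.
TNFSF13, A_01_P1698026: gatcAagccctgcttAaagttAaataaaag
TNFSF13, A_01_P004713: gatcagccctgcttaagttaataaaag

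The TACI probe, A_01_P1695166, lay at chr16:16833988-16834047 on the minus strand and the BCMA probe, A_01_P1711911, at chr20:12057270-12057329 on the plus strand. The first 30 bases of each are given to identify the probes.
TNFRSF13B, A_01_P1695166: tcttggcattgtgtgtgtgcctgcccagga
TNFRSF17, A_01_P1711911: gcagtgccactttaaaaatcttttgttgga

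Signals are given as log2 processed signal after normalization to the median array, unless a value is named as processed signal. Probes whose limma p, adjusted over all probes tested by Benjamini-Hochberg, was under 0.005 were called changed. The share of probes well above background ranged from 48.3% to 61.2% over the 24 arrays. The arrays were scanned in 2 sessions, and 6 of 7 pre-irradiation arrays were in the first session whereas all day 3 and day 5 arrays were in the second, with pre-irradiation replicate 5. Values within the second session therefore rest on 1 unirradiated array. The day 7 arrays were split like the pre-irradiation ones, all in the first session except replicate 5. Differences between day 7 and day 3 or day 5 are therefore largely differences between sessions as well.

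APRIL rose and BCMA fell at day 3. In that comparison 3 of 6 tested member probes were called, both for APRIL and the one for BCMA, beside 13.5% of all probes. At day 5 the BCMA probe alone was called, 1 of 6, beside 16.7% of all probes, and at day 7 none was, beside 10.9%. By direction, the 2 APRIL probes stand beside 5.43% of probes called higher at day 3, and BCMA beside 8.03% called lower then and 9.59% at day 5. The other shares were 7.15% called higher at day 5, and 3.6% higher and 7.28% lower at day 7. These shares depended on single animals, and the 3652 probes called at day 3 became 863 without replicate 4. With the replicate number as a block the day 3 count was 1 of 6, since BCMA remained called (adjusted p = 0.00364 in limma) and both APRIL probes did not, at differences of 1.51 and 1.53 (adjusted p = 0.00882 and 0.00899). That fit called 751 of 27127 probes at day 3, against 3652 with no block. With scan session as a block the counts were 0 at each day. Over all probes 37, 383 and 2916 were then called at day 3, day 5 and day 7, against 3652, 4543 and 2951 with no block. At day 3 and day 5 that fit rests on 1 unirradiated array of the second session. Most calls of other genes at these 2 days are therefore lost in it as well.

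**Figure D1:**
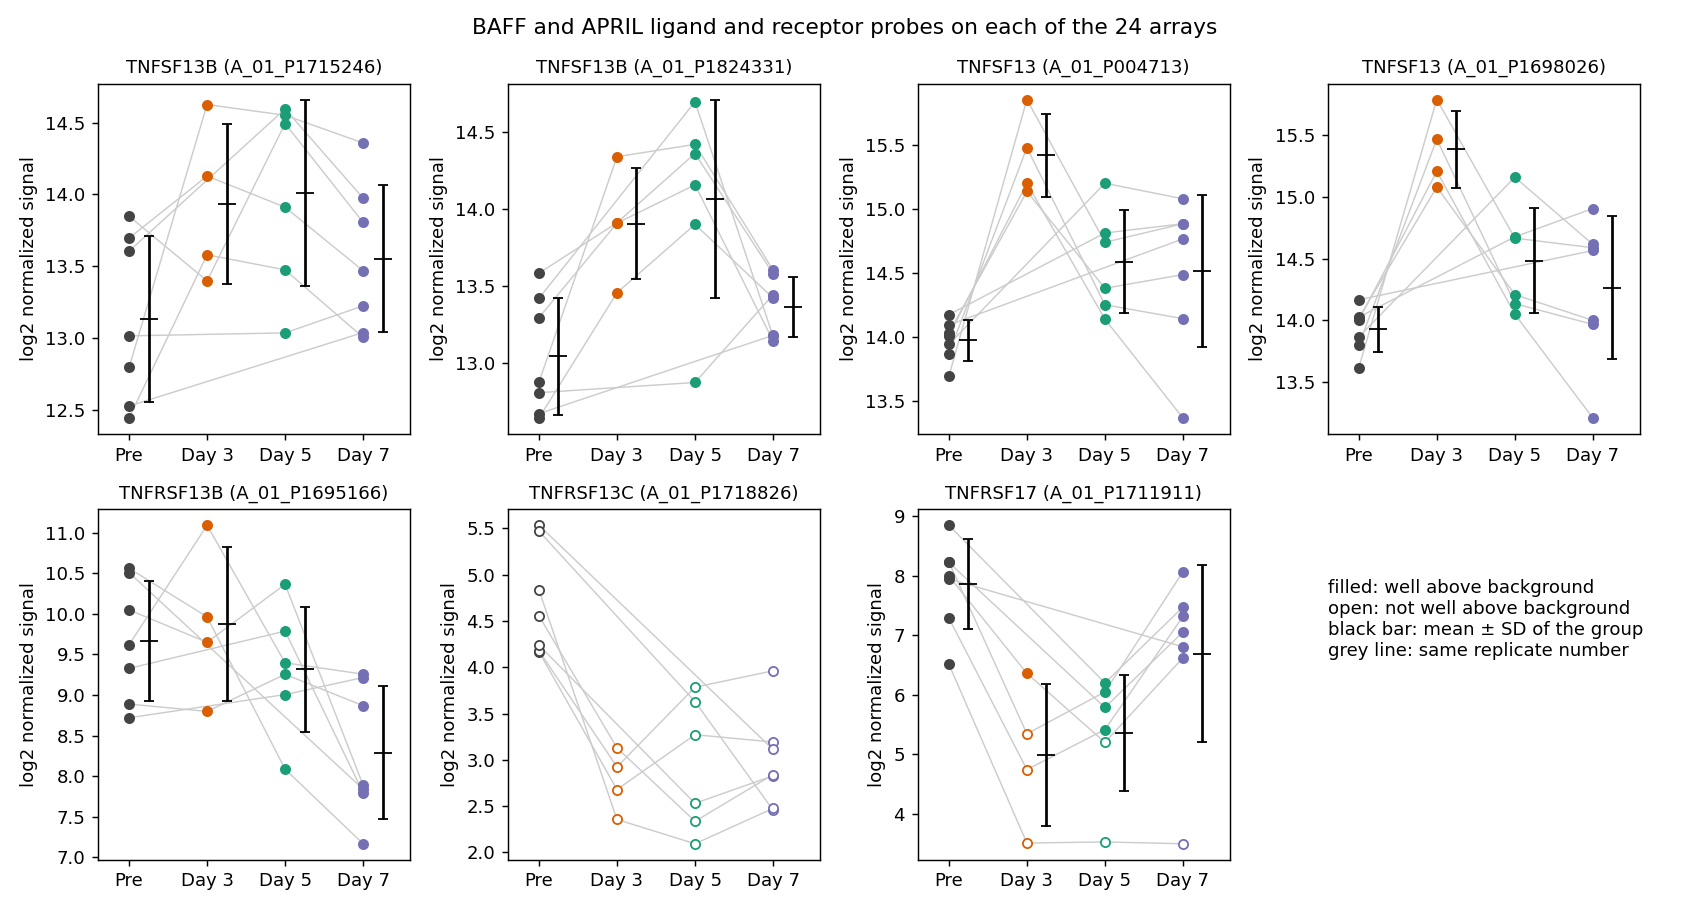
Log2 normalized signal (vertical axis) of the 7 member probes on each of the 24 arrays by group (horizontal axis). Points are arrays, filled where the probe was well above background, black bars are the mean ± SD of a group, and grey lines join the same replicate number. The 4 day 3 arrays lie above every pre-irradiation array for both TNFSF13 probes and below every one for TNFRSF17, and TNFRSF13C is open on all arrays. The day 3 and pre-irradiation arrays did not overlap for 21% of all probes.

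The APRIL ligand gene TNFSF13 was higher at day 3 on every array. With the brighter probe, A_01_P004713, the 7 pre-irradiation arrays ranged from 13.69 to 14.17 with a median of 14.01, and the day 3 arrays were at 15.85, 15.14, 15.20 and 15.48 for replicates 1, 2, 4 and 7. The groups did not overlap, as for 21% of all probes at day 3. The difference was 1.44 ± 0.17 (SE), a 2.72-fold rise (adjusted p = 0.000199, limma). The overlapping probe A_01_P1698026 gave 1.46 ± 0.17 and 2.75-fold (adjusted p = 0.0002, limma), and the pair correlated at r = 0.98 over the 24 arrays. With normexp background correction the day 3 differences of the 2 probes were 1.61 and 1.41, and neither was called (adjusted p = 0.039 and 0.0701, limma).

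The APRIL signal overlapped its pre-irradiation range at both later days. At day 5 the A_01_P004713 signal ranged from 14.14 to 15.20 with a median of 14.56, and in 5 of 6 samples it exceeded the whole pre-irradiation range. The difference was 0.61 (adjusted p = 0.0147, limma) and for the second probe 0.56 (adjusted p = 0.0309, limma). At day 7 the range was 13.37 to 15.08 with a median of 14.77, with 5 of 7 samples above that range and replicate 4 below it. No tested member probe separated the day 7 arrays from the pre-irradiation arrays, as 8.49% of all probes did. The differences at day 7 were 0.54 (adjusted p = 0.093, limma) and 0.34 (adjusted p = 0.292, limma). None of these passed the threshold. At day 5 both probes passed it with quantile normalization, and A_01_P004713 with no filter on dim probes (0.91, adjusted p = 0.00461, limma), whereas normexp background correction gave 0.27 and 0.041. With no filter the median difference of the tested probes also moved, to 0.32 from 0.02. At day 7 quantile normalization gave 0.95 and 0.72 with no call, and A_01_P1698026 was at 0.53 without replicate 4.

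Set in order, the mean APRIL signal was lowest before irradiation, then at day 7, day 5 and day 3. The order of day 7 and day 5 was not firm. With A_01_P004713 their means were 14.52 and 14.59, whereas their medians ran the other way, at 14.77 and 14.56. It also turned under several alternatives given in the last section. The step from day 5 to day 3 was not called, with a day 5 minus day 3 difference of -0.83 (adjusted p = 0.237, limma), nor was day 7 against day 5, at -0.07 (adjusted p = 0.913, limma). Within animals, the A_01_P004713 signal was higher than the same replicate's pre-irradiation value in 4 of 4 samples at day 3, by 1.10 to 2.16, in 6 of 6 at day 5, and in 6 of 7 at day 7. Within the second scan session, the 1 unirradiated array read 14.09 and lay below all 4 day 3 arrays. The day 3 difference was then 1.32 (adjusted p = 0.199, limma), and 1.22 for A_01_P1698026 (adjusted p = 0.218, limma). At day 5 the differences within that session were 0.49 and 0.32 (adjusted p = 0.588 and 0.758, limma).

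BAFF was higher on average on each day, but no BAFF probe passed the threshold. With A_01_P1715246 the 7 pre-irradiation arrays ranged from 12.44 to 13.85 with a median of 13.02, and the day 3 arrays were at 14.63, 13.58, 14.13 and 13.40 for replicates 1, 2, 4 and 7. Replicates 1 and 4 exceeded the whole pre-irradiation range and the other samples did not, so the groups overlapped. The day 3 difference was 0.80 ± 0.33 (SE; adjusted p = 0.0793, limma), or 0.51 without replicate 1, and that of A_01_P1824331 was 0.86 ± 0.24 (adjusted p = 0.0148, limma).

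At day 5 the BAFF signal ranged from 13.04 to 14.59 with a median of 14.20, with 4 of 6 samples above the pre-irradiation range. Replicates 2 and 6 were the lowest at that day. The differences were 0.88 ± 0.32 (adjusted p = 0.0449, limma) and, for A_01_P1824331, 1.03 ± 0.27 (adjusted p = 0.0102, limma). The A_01_P1824331 probe passed the threshold at day 5 with quantile normalization (1.17, adjusted p = 0.00353, limma), with no filter on dim probes (1.32, adjusted p = 0.00263), with all groups in one fit (1.03, adjusted p = 0.00167) and without replicate 6 (1.23, adjusted p = 0.00162). With no filter the median day 5 difference of the tested probes was itself 0.32, against 0.02 with the filter. With normexp background correction the day 5 differences were 0.29 for A_01_P1715246 and 0.50 for A_01_P1824331 (adjusted p = 0.737 and 0.535, limma). Within the second scan session, A_01_P1715246 differed by 1.41 at day 3 and 1.48 at day 5 (adjusted p = 0.265 and 0.237, limma). At day 7 the differences were 0.42 (adjusted p = 0.283, limma) and 0.32 (adjusted p = 0.193, limma). The first was 0.23 without replicate 1, and quantile normalization gave 0.71 and 0.58, with no call.

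In most animals the BAFF signal was above its own earlier value. The A_01_P1715246 signal exceeded the same replicate's pre-irradiation value on 3 of 4 arrays from day 3, 6 of 6 from day 5 and 5 of 7 from day 7, and the change ranged from -0.45 to 1.83 at day 3. The pre-irradiation values of this probe spread over an SD of 0.58, against 0.16 for A_01_P004713 of APRIL, and the BAFF probes correlated with each other at r = 0.86 over the 24 arrays.

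BCMA, the plasma-cell receptor, fell at day 3 and day 5. The 7 pre-irradiation arrays ranged from 6.51 to 8.85 with a median of 7.99, and the day 3 arrays were at 4.75, 6.36, 5.35 and 3.51 for replicates 1, 2, 4 and 7. All 4 lay below every pre-irradiation array, a separation found for 21% of all probes at day 3, and 1 of 4 was well above background. The difference was -2.87 ± 0.51 (SE; adjusted p = 0.00176, limma) on the log2 scale, and no linear fold is given because the day 3 signal was near background. This call was lost without replicate 1 (adjusted p = 0.00986, limma) and without replicate 4 (adjusted p = 0.0114, limma), and the differences were then -2.88 and -2.93.

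At day 5 the BCMA signal ranged from 3.53 to 6.20 with a median of 5.60, and 6 of 6 arrays lay below every pre-irradiation array, a separation found for 14.3% of all probes. It was well above background on 4 of 6 arrays. The difference was -2.50 ± 0.44 (adjusted p = 0.000689, limma), again with part of the signals near background. Within the second scan session, where the 1 unirradiated array read 7.95, the differences were -2.95 at day 3 (adjusted p = 0.224, limma) and -2.58 at day 5 (adjusted p = 0.159, limma). With normexp background correction they were -0.97 and -0.48 (adjusted p = 0.214 and 0.424, limma), and with the local background capped in that correction -1.46 and -1.36 (adjusted p = 0.00218 and 0.000412, limma). The direction was thus lower with each background correction, and the size depended on that correction.

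At day 7 the BCMA signal overlapped its pre-irradiation range. It ran from 3.50 to 8.07 with a median of 7.05, and was well above background on 6 of 7 arrays. The difference was -1.17 ± 0.57 (adjusted p = 0.14, limma). Day 7 exceeded day 3 by 1.70 (adjusted p = 0.144, limma) and day 5 by 1.33 (adjusted p = 0.256, limma), neither of which was called. With normexp background correction, the day 7 difference was -0.53 against pre-irradiation and -0.057 against day 5, also without a call. Replicate 7 was the lowest array in every group, at 6.51, 3.51, 3.53 and 3.50 from pre-irradiation to day 7.

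Each animal with a later sample showed less BCMA at day 3 and day 5 than before irradiation. The fall in the same replicate was between -3.00 and -1.63 in 4 of 4 samples at day 3 and between -2.98 and -1.87 in 6 of 6 at day 5. At day 7 it was lower in 6 of 7 samples, and the changes spread from -3.01 to 0.03.

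TACI, the shared receptor, was not called on any day. The 7 pre-irradiation arrays ranged from 8.72 to 10.56 with a median of 9.62, and the day 3 arrays were at 9.65, 8.80, 11.09 and 9.96 for replicates 1, 2, 4 and 7. The day 3 samples lay on both sides of the pre-irradiation median, with replicate 4 the highest of all 24 arrays, and the difference was 0.21 ± 0.46 (adjusted p = 0.749, limma). At day 5 it was -0.35 (adjusted p = 0.508, limma). The day 3 difference turned to -0.21 without replicate 4 and to -0.63 with scan session as a block, and the day 5 difference to 0.043 without replicate 7. With scan session as a block the day 5 difference was -1.19 (adjusted p = 0.366, limma).

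The lowest TACI signals were those of day 7. They ranged from 7.17 to 9.26 with a median of 7.89, and overlapped the pre-irradiation arrays. The difference of -1.38 ± 0.38 (adjusted p = 0.0155, limma) did not pass the threshold, and 6 of 7 animals were lower than before irradiation. Against day 3 the day 7 signal differed by -1.58 (adjusted p = 0.0446, limma).

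The BAFF-R gene TNFRSF13C was not well above background on any of the 24 arrays and so did not pass the filter on dim probes. Its processed signal ranged from 13.3 to 43.8 before irradiation with a median of 18.1. The day 3 range was 3.88 to 7.74, that of day 5 3.70 to 12.6 and that of day 7 3.82 to 11.4, so every later array read below every pre-irradiation array. After normalization this held too, with a pre-irradiation minimum of 4.17 and a highest later value of 3.96, at day 7. Such separation was found for 21%, 14.3% and 8.49% of the tested probes at day 3, day 5 and day 7. The scanner software marked the spot as positive and significant over its background on 7 of 7 pre-irradiation arrays, 0 of 4 at day 3, 1 of 6 at day 5 and 2 of 7 at day 7. It replaced the measured value by a surrogate on 0, 4, 5 and 5 of these arrays, so no fold is given. A fit with no filter called it lower on all 3 days (adjusted p = 0.00209, 0.00378 and 0.00165, limma), but most of the later values it used were surrogates and not measurements.

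**Figure D2:**
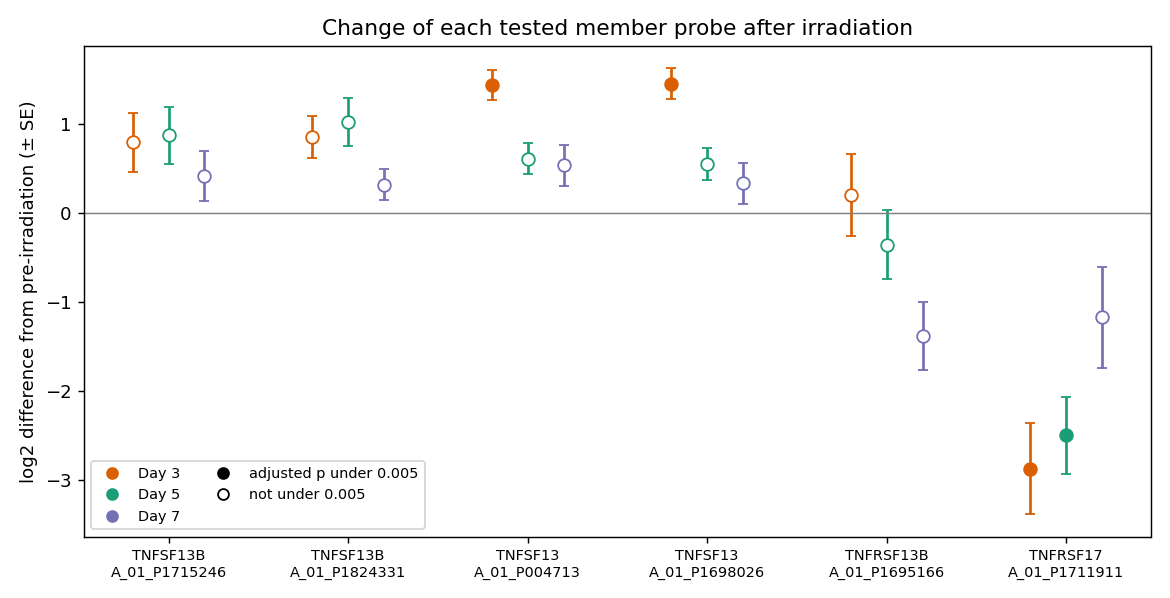
Log2 difference from pre-irradiation (vertical axis) of the 6 tested member probes (horizontal axis) at day 3, day 5 and day 7, with bars of 1 SE and filled points for adjusted p under 0.005 (limma). The filled points are both TNFSF13 probes at day 3, near 1.44 and 1.46, and TNFRSF17 at day 3 and day 5, at -2.87 and -2.50.

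No member probe was called between the later days. The call rate over all probes was 0.0184% for day 5 against day 3, 1.26% for day 7 against day 3, of which 0.947% were lower, and 0.00369% for day 7 against day 5. The largest differences in APRIL were -1.12 with A_01_P1698026 for day 7 against day 3 (adjusted p = 0.03, limma) and -0.90 for day 5 against day 3 (adjusted p = 0.207, limma). The day 7 change was compared between the 4 males and 3 females, and no member probe differed, with the lowest adjusted p at 0.782 (limma); none of 27133 probes was called in that test. For TACI, where that p was found, the day 7 change was -1.02 in males and -1.85 in females.

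The machinery that carries these receptors' signals was read against the 13.5%, 16.7% and 10.9% of all probes called on the 3 days. Of 20 tested genes for adaptors, kinases and NF-kB factors, 2 were lower at day 3, 1 was higher and 1 lower at day 5, and none was called at day 7. The medians of their log2 differences were 0.19, 0.08 and -0.15, against 0.02 on each day over all probes. TRAF3, the adaptor that holds noncanonical NF-kB signalling in check, fell by 1.38 at day 3 (adjusted p = 0.000541, limma) and by 1.07 at day 5 (adjusted p = 0.000884, limma). BIRC3, a ubiquitin ligase that works with TRAF3, fell by 1.48 at day 3 (adjusted p = 0.00217, limma). NFKB2, the noncanonical NF-kB subunit, rose by 0.80 at day 5 (adjusted p = 0.00294, limma).

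Genes for cleaving the ligands, shedding the receptors or binding APRIL at the cell surface, the last represented by the syndecan SDC2, were mixed. Of 9 tested genes, 2 were higher and 1 lower at day 3, 1 higher and 2 lower at day 5, and 2 lower at day 7, and the medians were 0.82, 0.53 and 0.0022. NCSTN and APH1A, both parts of the gamma-secretase complex that sheds BCMA, went opposite ways at day 3, with NCSTN up by 1.19 (adjusted p = 0.00113, limma) and APH1A at -1.01 (adjusted p = 0.00364, limma). ADAM17, a sheddase of membrane proteins, rose by 1.06 at day 3 (adjusted p = 0.00139, limma). APH1A was at -1.46 at day 5 and -0.86 at day 7, and PSEN2, a catalytic presenilin, at -0.87 and -0.80. All 4 of these values were called.

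Among 6 survival genes that these receptors are known to raise in B-lineage cells or to act through, 1 was lower at each of the 3 days and 2 were higher at day 5. The medians were 0.62, 0.76 and 0.43. BCL2L1, which encodes the anti-apoptotic BCL-XL, fell by 2.95 at day 3, 3.76 at day 5 and 2.98 at day 7 (adjusted p = 0.000346, 2.69e-06 and 0.00013, limma). BCL2L1 is also abundant in late red-cell precursors, and of 8 tested erythroid markers 7, 8 and 8 were lower on these days; their part in this result was not tested. PIM2, a survival kinase, and BCL2 rose by 1.06 each at day 5 (adjusted p = 0.000339 and 0.00488, limma).

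Other members of the TNF receptor superfamily changed in both directions. Of 18 tested, 7 were higher and 1 lower at day 3, 6 and 1 at day 5, and 3 and 1 at day 7, with medians of 0.94, 0.86 and 0.32. EDA2R, a p53 target gene, was higher by 5.01, 4.67 and 5.43 (adjusted p = 2.69e-05, 4.78e-06 and 5.3e-07, limma), and was well above background on 1 of 7 pre-irradiation arrays, so that the sizes rest on a baseline near background. TNFRSF10B, a TRAIL death receptor and p53 target, was not well above background before irradiation and was at least 3.40-fold, 3.50-fold and 4.51-fold higher (adjusted p = 8.34e-06, 1.52e-07 and 5.3e-07, limma). CD40, another receptor of B cells, was lower, at -2.15, -2.71 and -3.14 (adjusted p = 6.22e-05, 1.76e-06 and 8.41e-07, limma).

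Of 13 other TNF ligands tested, 1 was higher at day 3 and 2 at each of day 5 and day 7, and none was lower. Their medians were 0.31, 0.45 and 0.24. TNF was higher by 1.24 and 1.19 at day 3 and day 5 (adjusted p = 0.00431 and 0.00424, limma), with the same limit, since it was well above background on 1 of 7 pre-irradiation arrays. TNFSF4, the OX40 ligand, was higher by 0.91 at day 5 and 1.08 at day 7 (adjusted p = 0.00336 and 0.00164, limma). CD70, the CD27 ligand, was not well above background before irradiation and was at least 3.05-fold higher at day 7, where 6 of 7 arrays measured it (adjusted p = 0.000225, limma).

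B-cell markers, of the cells that carry these receptors, fell. All 13 that were tested were lower at day 3, with 12 of 13 lower at day 5 and 11 of 13 at day 7. The medians of the list were -3.53, -3.92 and -3.67. Their summed linear signal ranged from 36123 to 48365 before irradiation, from 2232 to 5428 at day 3, from 2769 to 4258 at day 5 and from 3341 to 7305 at day 7. The brightest, CD79B, part of the B-cell antigen receptor, was at -4.15, -4.35 and -3.75 (adjusted p = 8.34e-06, 6.9e-09 and 2.67e-08, limma). At day 7, with the B-cell markers still low, 6 of 7 BCMA arrays were within the pre-irradiation range. The part of B-cell numbers in the receptor results was not tested.

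Of 9 tested plasma-cell markers, 2 were lower at day 3, 2 lower and 2 higher at day 5, and none was called at day 7, with medians of -0.42, 0.014 and -0.11. The lower ones were JCHAIN, the joining chain of secreted antibodies, at -2.22 and -1.84 (adjusted p = 0.00322 and 0.00357, limma), and MZB1, an endoplasmic reticulum factor of antibody-secreting cells, at -1.999 and -1.55 (adjusted p = 0.00118 and 0.0014, limma). The higher ones at day 5 were PRDM1, a transcription factor of plasma-cell differentiation, at 0.89 (adjusted p = 0.00358, limma), and ELL2, an elongation factor of antibody-secreting cells, at 0.82 (adjusted p = 0.0041, limma). XBP1, the brightest of the list and also expressed outside plasma cells, was at 0.69, 0.40 and -0.11, with no call. The summed signal of the list overlapped between all groups and ranged from 47666 to 68465 before irradiation and from 53431 to 98832 at day 3.

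Markers of myeloid cells, known sources of BAFF and APRIL, rose in part at day 3. Of 9 monocyte markers, 3, 3 and 1 were higher at day 3, day 5 and day 7, when 5.43%, 7.15% and 3.6% of all probes were. Their summed signal ranged from 80493 to 135685 before irradiation and from 145571 to 205686 at day 3, without overlap, and overlapped the pre-irradiation range at day 5 and day 7. LYZ, the brightest, was at -0.55, -0.61 and -0.54 with no call. Of 13 neutrophil markers, 2, 2 and 1 were higher. Their summed signal overlapped, from 196698 to 420793 before irradiation and from 406083 to 1046249 at day 3, and the brightest, S100A9, was at 0.93, 0.73 and 0.75 with no call. Of 6 platelet markers all 6 were higher at day 3 and 2 at day 5, and PPBP, the brightest, was at 3.06 at day 3 (adjusted p = 0.000206, limma). The part of these cell types in the ligand results was not tested.

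**Figure D3:**
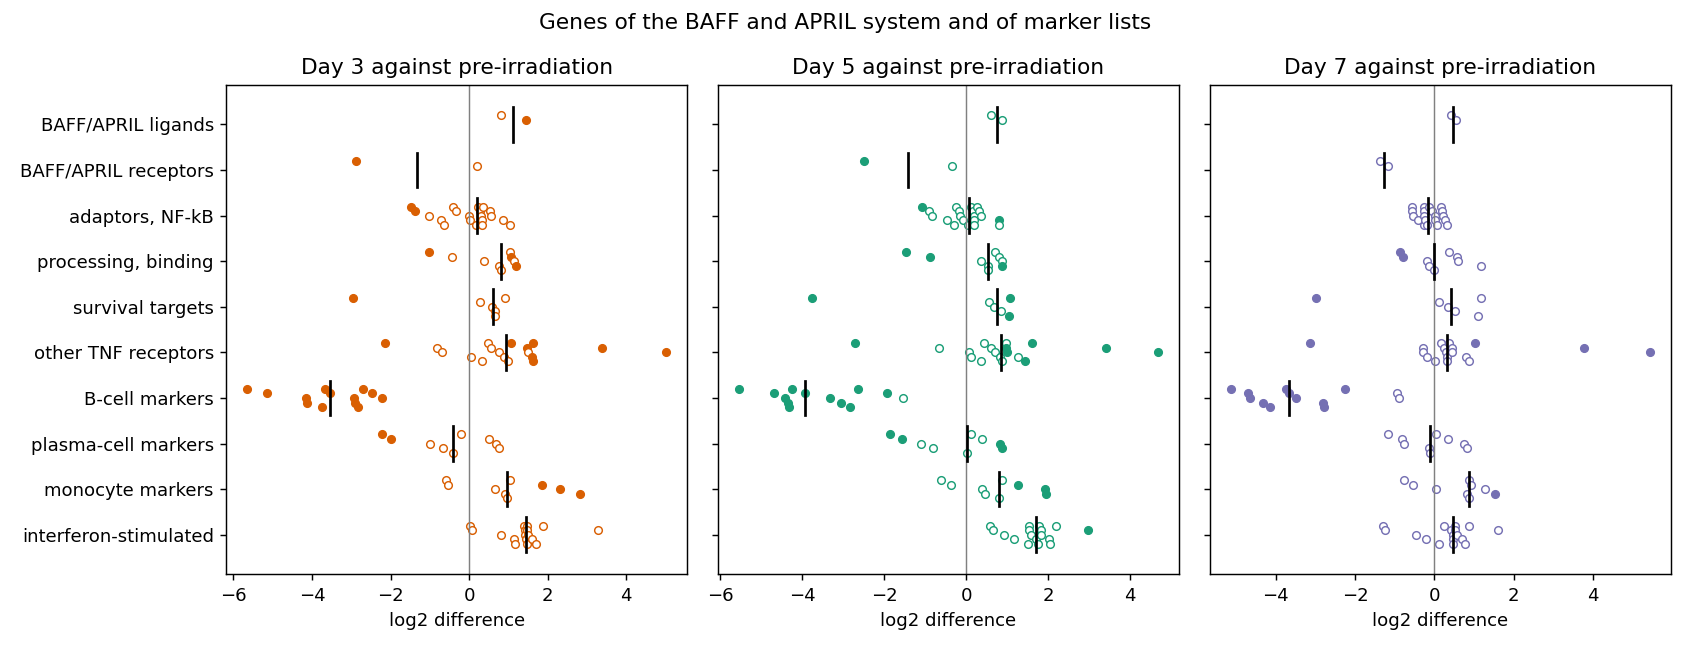
Log2 difference from pre-irradiation (horizontal axis) of the tested genes of 10 lists (vertical axis, 1 probe a gene) at day 3, day 5 and day 7. Filled points passed adjusted p under 0.005 (limma) and black bars are list medians. Among these 10 lists, B-cell markers lie lowest, with medians from -3.92 to -3.53. Interferon-stimulated genes lie at medians of 1.44, 1.72 and 0.46 with 1 filled point in all.

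The remaining cell type lists were mixed. Of 12 T-cell markers, 4 were lower at day 3, 2 at day 5 and none at day 7, and CCR7, the brightest, was at -2.15, -1.61 and -1.25. Of 6 dendritic-cell markers 3 were lower on each day, and TCF4, the brightest, was at -1.98, -2.18 and -1.94. None of 8 NK-cell markers was called on any day, with GNLY at 0.40, -0.14 and -0.12. Among erythroid markers ALAS2, the brightest, was at -3.63, -8.06 and -4.96.

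The genes most like each member were taken as the 3 with the highest Pearson correlation over the arrays among 11339 other gene symbols. Arrays of 1 group or 1 animal are not independent, so these values are descriptions. BCMA was most like JCHAIN (r = 0.96), MZB1 (r = 0.93) and POU2AF1, a B-lineage transcriptional coactivator (r = 0.91 over 23 arrays). After each group's mean was taken out, the values were 0.94, 0.86 and 0.83. Replicate 7 was the lowest array of its group in JCHAIN, as in BCMA, in all 4 groups.

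BAFF was most like OASL (r = 0.89), IRF7 (r = 0.88) and MX1 (r = 0.87), all interferon-stimulated genes. Within groups the values were 0.85, 0.83 and 0.82. Of 17 tested interferon-stimulated genes none was called at day 3 or day 7 and 1, CXCL10, was called at day 5 (2.99, adjusted p = 0.00381, limma), although the list medians were 1.44, 1.72 and 0.46. OASL was at 1.88, 2.05 and 0.58 on the 3 days.

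APRIL was most like LAMP1, a lysosomal membrane protein (r = 0.90 over 23 arrays), FAM20C, a secretory pathway kinase (r = 0.89), and CD300C, a myeloid surface receptor (r = 0.89). FAM20C was well above background on 15 of the 24 arrays. Within groups the values were 0.73, 0.84 and 0.78. All 3 were higher at day 3, by 1.09, 1.57 and 2.34. TACI was most like AADACL4 (r = 0.88), SNAP91 (r = 0.88 over 23 arrays) and MORC1 (r = 0.87), none of which was called on any day. These probes were dim, well above background on 15, 11 and 5 of the 24 arrays, so the likeness rests in part on signals near background. SNAP91 is best known from neurons and MORC1 from germ cells.

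Among the members themselves, different genes were less alike than probes of 1 gene. Over the 24 arrays, BAFF and APRIL correlated at r = 0.42 with their brighter probes, and at 0.15 after group means were taken out. APRIL and BCMA correlated at -0.45, and at 0.12 within groups. TACI and BCMA correlated at 0.07, and at 0.21 within groups.

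**Figure D4:**
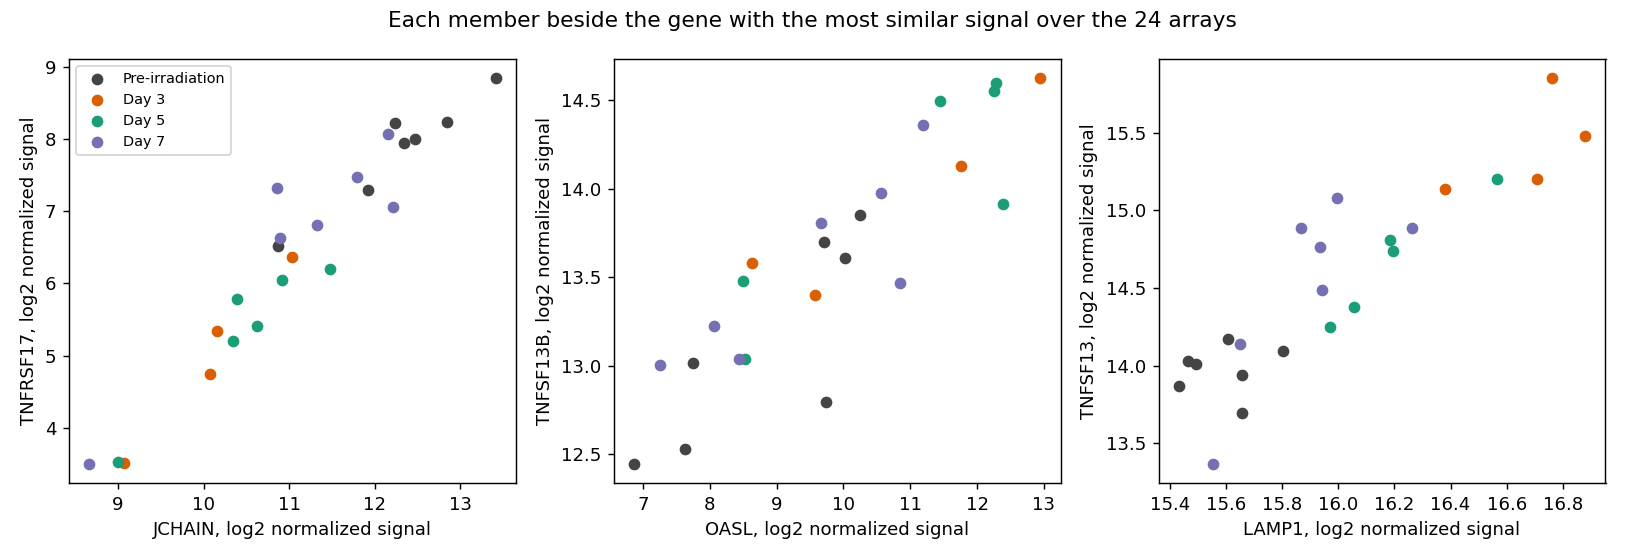
Log2 normalized signal of TNFRSF17, TNFSF13B and TNFSF13 (vertical axes) against that of JCHAIN, OASL and LAMP1 (horizontal axes), with 1 point an array coloured by group. TNFRSF17 and JCHAIN lie close to a line (r = 0.96), and the spread is wider for TNFSF13B with OASL (r = 0.89) and TNFSF13 with LAMP1 (r = 0.90).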

How the data were processed

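Whole blood RNA from irradiated macaques was hybridized by the authors to a one-colour Agilent rhesus array and read with Agilent Feature Extraction 10.7, per the labels. The processed signal intensity deposited for each spot is background-subtracted and detrended, and low values are replaced by a surrogate. The authors' log2 value table, normalized to the median array, served as an alternative. Here, log2 processed signal was averaged over spots of a probe without outlier spots, normalized to the median array, and tested for the 27133 of 43603 probes that were well above background on 4 or more of the 24 arrays. Each pair of groups was compared in limma 3.58.1 (R 4.3.3), two-sided, with Benjamini-Hochberg adjustment and a threshold of 0.005, and the code was tested on simulated data. Every probe named for the 5 genes is reported. A further probe under a provisional locus name, with TNFRSF13B in its description, was not used here. The brightest probe represents any other gene. From each other list at most the 3 called genes with the largest difference on a day, and from cell type lists the brightest gene, are named. ELL2 and SDC2 fall outside that rule and were named after their values were seen. Members and lists were chosen with earlier results of these data known.

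The labels use the replicate numbers of the pre-irradiation group again on later days. Day 3 held only replicates 1, 2, 4 and 7, day 5 lacked replicate 5, and day 7 held all of them. Deviations from group means of same-numbered samples correlated between pre-irradiation and later days at 0.13 to 0.46, all over 0.1, so the numbers were taken to mark animals. Replicates of a group are then separate animals. The number of arrays limits the precision.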

Additional observations from a re-analysis of the deposited data

Results flagged for a closer look

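BCMA (TNFRSF17) held both outlying arrays among 28 groups of arrays examined over the 7 member probes, where chance alone sets an array apart in about 1 in 20 groups. Replicate 7 was the lowest of its group at day 5, at 3.53, with a gap to its neighbour of 0.626 of the group's range, just past the critical value of 0.625. At day 7 it was at 3.50, with a gap of 0.684 of the range, against a critical value of 0.568. Neither array was well above background for this probe.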

How the results depend on the processing

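The count of called member probes was 3 at day 3, 1 at day 5 and 0 in the other comparisons. At day 3 it became 1 with the replicate number as a replicate block, and 0 with normexp background correction, slide as a block, scan session as a block, within scan session 2, and with all groups in one fit and scan session as a block. At day 5 it became 4 with quantile normalization, 3 with no filter on dim probes, 2 with all groups in one fit, and 0 with normexp, scan session as a block, within scan session 2 and all groups with session. These counts cover the same 6 probes throughout, and with no filter TNFRSF13C would add 1 lower probe at each day against pre-irradiation, on mostly surrogate values. For day 7 against day 3 it became 1 with all groups in one fit, which called 2177 of 27127 probes, against 343 in the main fit. Without one replicate the counts ranged from 2 to 3 at day 3 and from 1 to 2 at day 5, and were 0 elsewhere. The calls over all probes then ranged from 863 to 3492 at day 3, from 2714 to 4296 at day 5 and from 1654 to 2576 at day 7. The replicate block changed no other count. It called 751, 4171 and 2326 of all probes at day 3, day 5 and day 7. Scan session as a block called 37, 383 and 2916, and all groups with session 814, 1476 and 3915. Slide as a block called 0 at day 3 and 2630 at day 7. Over all probes, normexp called 139, 239 and 315 probes at day 3, day 5 and day 7, against 3652, 4543 and 2951. On 10 of 24 arrays, spots with a very bright local background raised its lowest signals to 326 or more, against 84.2 or less on the others. With local background capped at a high percentile of each array, an alternative chosen after seeing the data as was the fit of all groups with session, the member counts were 3 and 1 again, but the BCMA differences shrank to -1.46 and -1.36. No filter moved the median of all probes to 0.18, 0.32 and 0.29. Differences that changed sign were never called. TACI at day 3 was -0.63 with session as a block and within session 2, and -0.21 without replicate 4. At day 5, leaving out each replicate in turn gave -0.50 to 0.043, above 0 without replicate 7. For day 5 against day 3, the BAFF probes became -0.39 and -0.33 with normexp, -0.34 and -0.28 with slide as a block, and A_01_P1715246 -0.04 and -0.20 without replicates 3 and 7 (range -0.20 to 0.27 without one replicate), and BCMA -0.89 with slide as a block. For day 7 against day 5, APRIL became 0.44 and 0.41 with normexp, 0.083 and 0.18 with session as a block or within session 2, and A_01_P004713 0.12 with quantile normalization and 0.030 without replicate 4 (range -0.11 to 0.030 without one replicate). BAFF became 0.28 and BCMA -0.057 with normexp. The cause was not tested. The slide block could not be fitted for day 5 against pre-irradiation, which share no slide. Precision is limited by the 4 day 3 arrays and, for BCMA, by signal near background.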
